A study of Rattus norvegicus with 9 samples.

Results

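The Myc network was followed in cultured rat Schwann cells through 7 genes: Myc and Mycn, Max, and the Mxd genes Mxd1, Mxi1, Mxd3 and Mxd4. Its members were all probe sets annotated to exactly 1 of these genes, which gave 9 probe sets of the 31042 tested, or 7 of 14213 genes. Myc, Mycn, Mxd1, Mxd3 and Mxd4 had 1 probe set each, and Max and Mxi1 had a pair each.

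Myc and Mycn encode basic helix-loop-helix leucine zipper transcription factors that bind DNA only when paired with Max, and the Myc-Max pair activates genes of ribosome production, metabolism and cell growth. Mxd1, Mxi1 (also called Mad2 or Mxd2), Mxd3 and Mxd4 also pair with Max, bind the same E-box sequence and recruit Sin3 corepressors with histone deacetylases. They are generally linked to cells that leave the cell cycle, except Mxd3, which is linked to S phase. ERK signalling raises Myc transcription and, by phosphorylation, slows the breakdown of the Myc protein, which expression arrays do not measure.

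Primary rat Schwann cells, the glia of peripheral nerve, were prepared from sciatic nerve and transiently transfected. Control RNAi cells received scrambled RNAi oligonucleotides, NF1 RNAi cells received oligonucleotides against NF1, and NF1 RNAi + U0126 cells received the NF1 oligonucleotides and the MEK inhibitor U0126, which blocks the kinase above ERK. RNA was taken 48 hours after transfection from 3 independent biological replicates per group, 9 arrays in all. The sources used here give no rat strain or age, no oligonucleotide sequences and no dose or timing of the inhibitor. Control cells with the inhibitor were not analysed here; U0126 is compared only within NF1 knockdown cells.

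Nf1 itself, which encodes a GTPase-activating protein for Ras, had intensities of 99.3, 95.6 and 70.0 in Control RNAi cells, 41.1, 41.5 and 42.4 in NF1 RNAi cells and 42.5, 51.7 and 40.9 in NF1 RNAi + U0126 cells. Array medians lay between 94.6 and 96.7. Control RNAi replicate 1 differed from the other control arrays with an SD of log2 differences of 0.31 and 0.36, against 0.15 between those, and it carried more cell cycle signal: the median log2 level of 16 measured G2 and mitosis genes was 8.79 there, against 6.83 and 6.90 in its fellow controls and from 5.67 to 6.36 elsewhere. Member values are therefore also given without it where that changes a call, turns a sign or moves a difference by over 1.5 times. Fold changes are differences of log2(intensity + 1) ± the standard error of the limma fit, levels are means ± SD, n = 3 arrays per group, and a probe set passed at an adjusted p under 0.05 over all 31042 probe sets.

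Of the 9 member probe sets, 5 passed between NF1 RNAi and Control RNAi (2 higher, 3 lower), where 20.4% of all probe sets passed (10.6% higher, 9.84% lower). Between NF1 RNAi + U0126 and NF1 RNAi cells, 2 passed (1 higher, 1 lower), against 10% of all probe sets (4.45% higher, 5.58% lower). Between NF1 RNAi + U0126 and Control RNAi cells, 3 passed (1 higher, 2 lower), against 28.1% of all (14.2% higher, 13.9% lower), and 5 passed with replicate number as a block (3 higher, 2 lower). These comparisons share arrays with each other, so they are not independent of one another. The groups did not overlap in 8, 3 and 5 of the 9 probe sets in the 3 comparisons in that order, where 35.3%, 28.6% and 41% of all probe sets did not overlap. In these bulk samples, fewer cells of a type and less RNA per cell cannot be told apart.

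Myc was lower with NF1 knockdown and lower again with the inhibitor. Its intensity was 202, 260 and 249 in Control RNAi cells, 106, 174 and 152 in NF1 RNAi cells, and 50.0, 62.5 and 66.8 in NF1 RNAi + U0126 cells. No array of a group overlapped another group, and replicate 1 was the lowest array in each group. Mean intensity was 60.9% of control with NF1 RNAi and 25.3% with NF1 RNAi + U0126.

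With NF1 RNAi, Myc (probe set 1368308_at) fell by 0.73 ± 0.19 (adjusted p = 0.0213; 0.000734 with replicate number as a block). The call rested on few arrays: the adjusted p was 0.0749 without Control RNAi replicate 2, 0.0608 without Control RNAi replicate 3 and 0.0508 without NF1 RNAi replicate 1, with differences of −0.66, −0.69 and −0.53. Adding U0126 to knockdown cells lowered Myc by a further 1.24 ± 0.19 (adjusted p = 0.00337), and this passed whichever array was left out, with differences from −1.44 to −1.08. Against Control RNAi cells the fall was 1.97 ± 0.19 (adjusted p = 8.06e-05). In the inhibitor group the probe set was dim, between the 36.4th and 42.9th percentile of the array, against the 62.9th to 67.0th in control cells.

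Mycn, the family member best known from neural progenitors and neuroblastoma, fell with knockdown but rose with the inhibitor. Its intensity was 163, 166 and 161 in Control RNAi cells and 94.0, 89.2 and 71.4 in NF1 RNAi cells, then 241, 128 and 133 in NF1 RNAi + U0126 cells. The control arrays were tightly grouped and every NF1 RNAi array lay below every array of both other groups. Control RNAi and NF1 RNAi + U0126 arrays overlapped, with inhibitor replicate 1 above all controls and the other inhibitor arrays below them.

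Mycn (1376648_at) lost 0.95 ± 0.22 under NF1 RNAi, a difference of −0.95 (adjusted p = 0.0134; 0.0538 without NF1 RNAi replicate 3), and was higher by 0.92 ± 0.22 with U0126 than without (adjusted p = 0.0275). The second call did not hold without NF1 RNAi replicate 1, 2 or 3 (adjusted p = 0.0503, 0.0788 and 0.10), nor in a fit of those groups alone (adjusted p = 0.0515). In same-numbered pairs of arrays Mycn was higher with the inhibitor by 1.35, 0.52 and 0.89. As the NF1 RNAi and inhibitor arrays did not overlap, any pairing would be positive, so these signs add no support. Against Control RNAi cells the difference was −0.03 ± 0.22 (adjusted p = 0.936), with arrays on both sides. Without inhibitor replicate 1, the highest Mycn array, the difference with U0126 was 0.62 (adjusted p = 0.0128). The inhibitor contrast of Myc and that of Mycn thus passed with opposite signs, −1.24 and 0.92. Of 9 neuron markers, 1 was higher and 3 lower with NF1 RNAi, and 3 were higher and none lower with U0126 (limma; 1 lower at an unadjusted p under 0.05). The neurofilament genes Nefl (−2.25 ± 0.34, then 1.28 ± 0.34) and Nefm (−2.03 ± 0.24, then 1.55 ± 0.24) passed in both with the signs of Mycn. The other Nefl probe set passed with NF1 RNAi (−2.22 ± 0.37) but not with U0126 (1.20 ± 0.37, limma adjusted p = 0.075). The other neuron markers differed from that pattern. Tubb3 was at −2.30 ± 0.34 and then −0.83 ± 0.34 (adjusted p = 0.18, and lower with replicate number as a block). Map2 was at −0.01 ± 0.14 and then 0.83 ± 0.14, and Rbfox3 at 0.30 ± 0.09 and then −0.09 ± 0.09. Snap25, Syt1, Stmn2 and Elavl4 lay below a log2 level of 6 in all groups and did not pass. The part of these markers in the Mycn result was not tested.

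**Figure D1:**
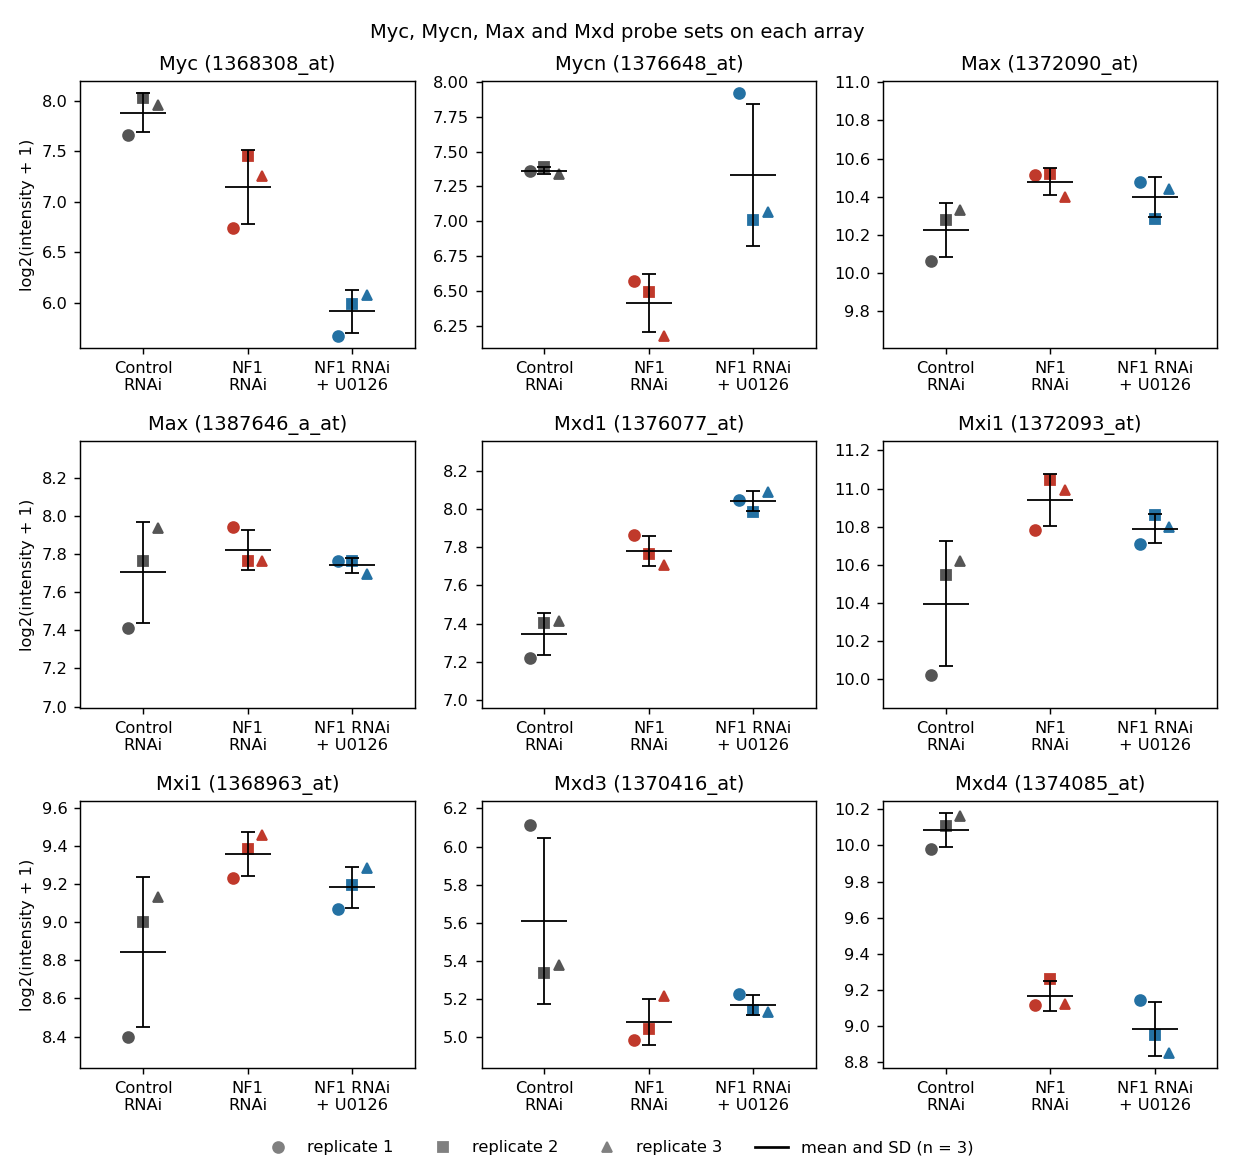
Level of each member probe set on each array, as log2(intensity + 1), by group, with marker shape for the replicate number and bars for the mean ± SD of 3 arrays; each panel has its own vertical range. Myc steps down over the 3 groups without overlap, Mycn is lowest in all NF1 RNAi arrays, and Mxd4 is lower in both groups that received NF1 oligonucleotides.

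Max, the shared partner of all these proteins, passed in no comparison with either probe set in the main fit. Its brighter probe set (1372090_at) read 1070, 1242 and 1287 in Control RNAi cells, 1464, 1469 and 1348 in NF1 RNAi cells and 1426, 1245 and 1387 in NF1 RNAi + U0126 cells. The NF1 RNAi arrays lay above all control arrays, by 0.25 ± 0.09, which did not pass (adjusted p = 0.0748). With array weights that difference was 0.21 and passed (limma adjusted p = 0.0162). With U0126 the difference was −0.08 ± 0.09 from NF1 RNAi cells (adjusted p = 0.677) and 0.17 ± 0.09 from control cells (adjusted p = 0.177), the latter 0.094 (adjusted p = 0.428) without Control RNAi replicate 1.

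The other Max probe set (1387646_a_at) lay between 169 and 244 on control arrays, between 216 and 245 on knockdown arrays and between 206 and 216 on those with the inhibitor. Its differences were 0.12 ± 0.12, −0.08 ± 0.12 and 0.04 ± 0.12 in the 3 comparisons in the order above, none past the threshold. The first and the last became −0.03 and −0.11 without Control RNAi replicate 1, which was the lowest control array for both Max probe sets.

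Mxd1, the founding Mad repressor, was higher in both NF1 oligonucleotide groups. Its intensity was 148, 168 and 170 in Control RNAi cells, 232, 216 and 208 in NF1 RNAi cells and 264, 253 and 271 in NF1 RNAi + U0126 cells. The 3 groups did not overlap, and their order was the reverse of that of Myc. Mxd1 (1376077_at) rose by 0.43 ± 0.07 with NF1 RNAi (adjusted p = 0.00347), and this passed without any 1 array, at 0.33 to 0.47. Its further difference with U0126 was 0.26 ± 0.07 (adjusted p = 0.0578), which missed the threshold. That difference passed under 8 alternatives in which the filter, the scaling, the arrays or the unit tested was changed. There the adjusted p was 0.0213 to 0.0498 (0.0273 without Control RNAi replicate 1). These alternatives reuse the same arrays, and several leave the difference at 0.26, so they are not separate support. The difference did not pass with replicate number as a block (0.0684), under the other scalings and variance model tried, or without any 1 of the NF1 RNAi or inhibitor arrays (up to 0.169). Against Control RNAi cells Mxd1 was higher by 0.70 ± 0.07 (adjusted p = 0.000158).

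Mxi1, a Max-binding repressor named as Max interactor, was higher with NF1 RNAi in its brighter probe set. That probe set (1372093_at) read 1037, 1496 and 1573 in Control RNAi cells, 1763, 2111 and 2033 in NF1 RNAi cells and 1675, 1858 and 1779 in NF1 RNAi + U0126 cells. All arrays with NF1 oligonucleotides lay above all control arrays, and Control RNAi replicate 1 was far below the others. The rise with NF1 RNAi was 0.54 ± 0.15 (adjusted p = 0.0287), or 0.36 (adjusted p = 0.0244) without Control RNAi replicate 1. It did not pass without NF1 RNAi replicate 2 (adjusted p = 0.10) or replicate 3 (0.0877), or in a fit of those groups alone (0.0683).

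The dimmer Mxi1 probe set (1368963_at) read 336, 511 and 559 in Control RNAi cells, 599, 666 and 702 in NF1 RNAi cells and 536, 585 and 623 in NF1 RNAi + U0126 cells. It differed by 0.51 ± 0.17 with NF1 RNAi (adjusted p = 0.0616; 0.0109 with replicate number as a block), or by 0.29 (adjusted p = 0.0641) without Control RNAi replicate 1. With U0126 added, the difference from NF1 RNAi cells was −0.15 ± 0.15 and −0.17 ± 0.17 in the pair of probe sets, and neither passed. Against Control RNAi cells, 0.39 ± 0.15 and 0.34 ± 0.17 did not pass (adjusted p = 0.077 and 0.17) but did with replicate number as a block (0.016 and 0.0465). Without Control RNAi replicate 1 they were 0.21 and 0.12, and did not pass (adjusted p = 0.13 and 0.398).

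Mxd3 was dim. Its intensity was 68.3, 39.4 and 40.6 in Control RNAi cells, 30.7, 32.0 and 36.1 in NF1 RNAi cells and 36.5, 34.3 and 34.2 in NF1 RNAi + U0126 cells, all but the first between the 26.2th and 32.8th percentile of the array. The high value was Control RNAi replicate 1, the array with the highest mitosis signal. The part of cell cycle signal in the Mxd3 result was not tested. The difference of −0.53 ± 0.18 with NF1 RNAi did not pass (adjusted p = 0.0715). Without that array it was −0.28 (adjusted p = 0.045). With U0126 the difference from NF1 RNAi cells was 0.09 ± 0.18 (adjusted p = 0.839). Against control cells NF1 RNAi + U0126 cells differed by −0.44 ± 0.18 (adjusted p = 0.104), or by −0.19 (adjusted p = 0.124) without Control RNAi replicate 1.

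Mxd4 fell with NF1 knockdown, opposite in sign to Mxd1 and to the brighter Mxi1 probe set. Its intensity was 1008, 1104 and 1145 in Control RNAi cells, 553, 612 and 556 in NF1 RNAi cells and 564, 493 and 460 in NF1 RNAi + U0126 cells. All control arrays lay above all others, and both groups with NF1 oligonucleotides overlapped. The knockdown difference of Mxd4 (1374085_at) was −0.92 ± 0.09 (adjusted p = 0.000197), from −0.97 to −0.88 with arrays left out, and with NF1 RNAi + U0126 it was −1.10 ± 0.09 from control (adjusted p = 3.64e-05). The difference made by the inhibitor was −0.19 ± 0.09 (adjusted p = 0.27).

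**Figure D2:**
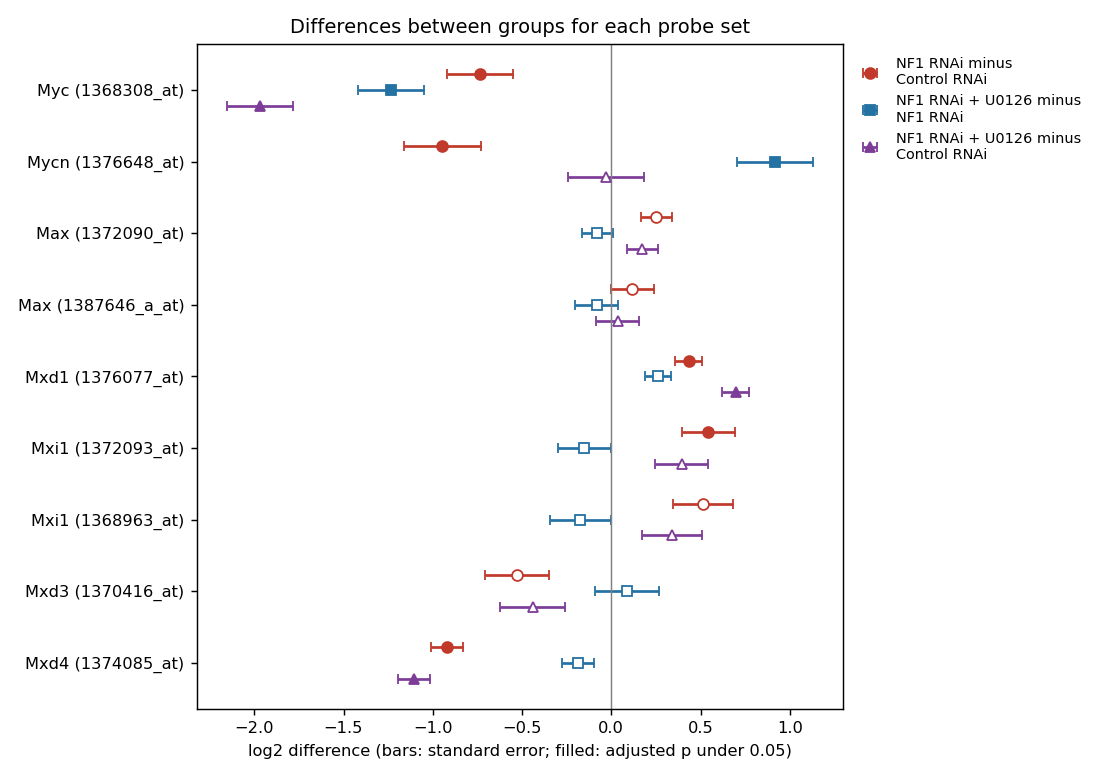
Log2 difference of each member probe set in the 3 comparisons, with bars for the standard error and filled markers for an adjusted p under 0.05. Myc is below 0 in all 3 comparisons, Mycn lies at −0.95 and 0.92 in the first and second, and the Mxd genes split between rises (Mxd1, 0.43, and Mxi1, 0.54) and a fall (Mxd4, −0.92) with NF1 RNAi.

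Promoter sequence was at hand for 5 of the 7 genes (Max, Mxd1, Mxi1, Mxd3 and Mxd4), as RefSeq windows from 250 bases before to 50 after the start site (assembly GRCr8, whose coordinates are not those of the arrays). The E-box bound by Myc-Max and Mxd-Max pairs, CACGTG (which reads the same on both strands), lay in the windows of Max, 33 bases before the start, and Mxd4, 197 bases before it. Of 19005 protein-coding genes, 7.69% have CACGTG in such a window. The 250 bases before the start are shown for these members because Max did not pass in the main fit and Mxd4 fell. Both hold the same letters, with the E-box in capitals, and each is read 5′ to 3′ on the gene's strand. The places are chr6:101395291-101395540 (minus strand) for Max and chr14:80786531-80786780 (plus strand) for Mxd4.
Max: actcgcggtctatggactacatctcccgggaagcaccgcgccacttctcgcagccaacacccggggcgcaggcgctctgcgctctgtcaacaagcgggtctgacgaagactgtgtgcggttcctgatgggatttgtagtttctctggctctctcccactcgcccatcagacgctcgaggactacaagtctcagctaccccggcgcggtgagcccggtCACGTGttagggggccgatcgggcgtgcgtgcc
Mxd4: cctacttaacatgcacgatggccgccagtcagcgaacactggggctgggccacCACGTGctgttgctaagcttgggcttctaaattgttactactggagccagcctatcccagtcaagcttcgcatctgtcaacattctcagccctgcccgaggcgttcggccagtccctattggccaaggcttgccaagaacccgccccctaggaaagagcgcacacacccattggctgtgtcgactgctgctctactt
A match is a string of letters and not a measured binding site. The ETS core CCGGAAG (or CTTCCGG on the other strand) was in none of the 5 windows and in 11.6% of all genes, and an E2F-type site, searched as TTTGGCGC or TTTCCCGC on both strands, was in none of the 5 and in 2.03% of all genes.

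The remaining genes of the network, which pair with Max or with its relative Mlx, passed in the higher direction where they passed. Of 6 measured, 2 were higher and none lower with NF1 RNAi (24.6% of all genes passed, 12.1% higher and 12.4% lower, each gene by its brightest probe set), 1 was higher with U0126 added to knockdown (5.95% of all), and 4 were higher with NF1 RNAi + U0126 than in control cells (16.6% of all). None of the 6 was lower in any of these comparisons, at an adjusted or an unadjusted p under 0.05.

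Mycl, the other Myc family gene, read 754, 967 and 1189 in Control RNAi cells, 1686, 1844 and 2200 in NF1 RNAi cells and 2560, 2431 and 2467 in NF1 RNAi + U0126 cells. The groups did not overlap, as for 41.2%, 33.9% and 47.2% of all genes in the 3 comparisons, and their order was the reverse of that of Myc. Mycl rose by 0.99 ± 0.15 with NF1 RNAi (adjusted p = 0.00214) and was 1.38 ± 0.15 above control with NF1 RNAi + U0126 (adjusted p = 0.000204). Its difference with U0126, 0.39 ± 0.15, did not pass (adjusted p = 0.172). Thus with NF1 RNAi the 3 Myc family genes passed as lower (Myc and Mycn) and higher (Mycl).

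Mlx, the Max-like partner of the glucose-sensing factors, read 405, 389 and 464 in Control RNAi cells, 656, 578 and 579 in NF1 RNAi cells and 744, 698 and 768 in NF1 RNAi + U0126 cells, with no overlap between groups. NF1 RNAi raised it by 0.53 ± 0.09 (adjusted p = 0.00265) and its other probe set by 0.52 ± 0.08 (adjusted p = 0.00211). The further difference with U0126 was 0.29 ± 0.09 (adjusted p = 0.0711; 0.0467 with replicate number as a block), and 0.41 ± 0.08 in the other probe set (adjusted p = 0.0116). Mlxip, which encodes the glucose sensor MondoA, rose by 0.40 ± 0.08 with U0126 (adjusted p = 0.0107), though its dimmer probe set differed by 0.08 ± 0.12 (adjusted p = 0.756). Mga, a Max-binding repressor, was higher by 0.38 ± 0.11 in NF1 RNAi + U0126 than in control cells (adjusted p = 0.0337), and its other probe sets did not pass (0.41 ± 0.18 and 0.12 ± 0.10). Mnt, a widely expressed Max-binding repressor, did not pass in any comparison, with differences of −0.07 ± 0.11, 0.13 ± 0.11 and 0.06 ± 0.11.

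**Figure D3:**
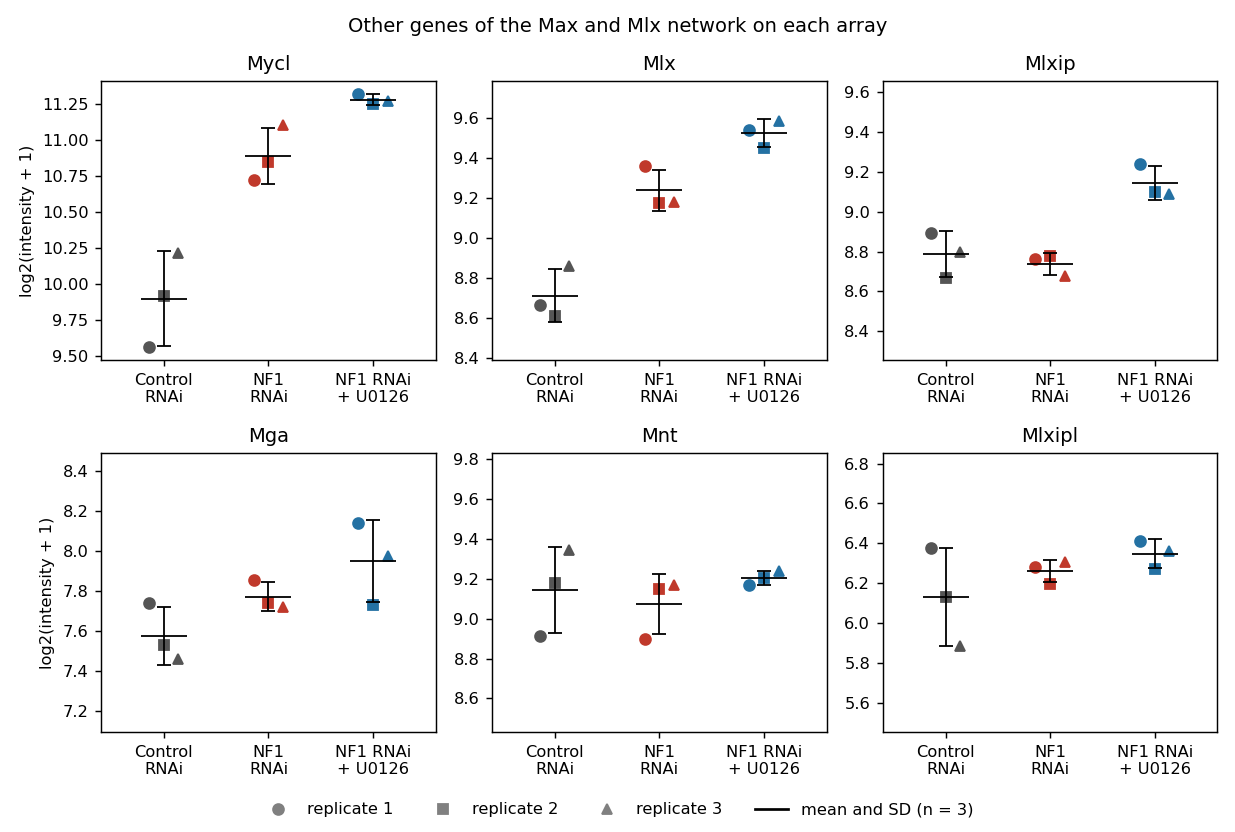
Level of the other Max and Mlx network genes on each array, as log2(intensity + 1), by group, with marker shape for the replicate number and bars for the mean ± SD of 3 arrays; each panel has its own vertical range. Mycl and Mlx step up over the 3 groups without overlap, and Mlxip is higher in the arrays with U0126 than in all others.

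Genes that act on the Myc protein or with it are read against all genes, of which 24.6% passed with NF1 RNAi, 12.4% with U0126 added and 33.5% between NF1 RNAi + U0126 and control cells. Of 7 measured genes of Myc turnover, NF1 RNAi raised Usp28 (a deubiquitinase) by 0.37 ± 0.08 and lowered Gsk3b (a kinase that marks Myc for breakdown), with a difference of −0.49 ± 0.09 (adjusted p = 0.0127 and 0.0049). None of the 7 passed with U0126 in limma, also at an unadjusted p under 0.05. Of 9 listed Myc cofactor genes, Ruvbl2 and Trrap were lower with NF1 RNAi, at −0.27 ± 0.07 and −0.20 ± 0.06 (adjusted p = 0.0195 and 0.0416, and 0.0505 for Trrap with replicate number as a block). Against control, NF1 RNAi + U0126 cells had 3 of these 9 higher (Kat2a, 0.39 ± 0.09, Zbtb17, 0.31 ± 0.06, and Ep400, 0.27 ± 0.07) and 2 lower (Ruvbl2 and Trrap). That made 5 of 9, where 16.6% of all genes were higher and 16.9% lower. Of 7 measured genes of the Sin3 corepressor that Mxd proteins recruit, Ncor1 rose by 0.22 ± 0.06 with NF1 RNAi (adjusted p = 0.021), and none passed with U0126 (limma; none at an unadjusted p under 0.05).

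Genes listed as targets that Myc activates had calls in different directions in the comparisons in which Myc fell. Of 29 measured ribosome biogenesis genes, 4 fell and none rose with NF1 RNAi: Bop1 (−0.37 ± 0.06), Tcof1 (−0.36 ± 0.07), Noc4l (−0.29 ± 0.09) and Rrs1 (−0.25 ± 0.07), all with roles in making ribosomal RNA or subunits. The dimmer Tcof1 probe sets did not pass (0.07 ± 0.09 and −0.22 ± 0.08, limma adjusted p = 0.679 and 0.0845). At an unadjusted p under 0.05, 8 of the 29 genes were lower and none higher. The share of all genes at that unadjusted threshold was not counted, so that count cannot be read as a shift of the list. The list median was −0.09, against 0.02 over all genes, and the share lower, 4 of 29, stood beside 12.4% of all genes.

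When U0126 took Myc to its lowest level, none of these 29 genes passed in either direction in limma, where 12.4% of all genes passed. At an unadjusted p under 0.05, 9 were higher and none lower, again without a count over all genes to set beside it. With replicate number as a block, 2 rose and none fell. The list median was 0.09, against 0.02 over all genes. The gene with the smallest p was Nop2, an rRNA methyltransferase, at 0.22 ± 0.06 (adjusted p = 0.0608). Against control cells 3 of 29 were higher and 3 lower, where 16.6% of all genes were higher and 16.9% lower. Among them were Nop2 (0.35 ± 0.06), Polr1a (−0.31 ± 0.10), Nop58 (−0.29 ± 0.08) and Nop56 (0.28 ± 0.07).

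Of 30 measured metabolic and growth targets, 5 rose and 6 fell with NF1 RNAi. Shmt2 (mitochondrial serine hydroxymethyltransferase) fell by 1.02 ± 0.10 and Ccnd2 (cyclin D2) by 0.72 ± 0.15, and the nucleotide synthesis genes Prps2 and Ppat rose by 0.57 ± 0.13 and 0.52 ± 0.09. With U0126, 8 rose and 4 fell (10 and 4 with replicate number as a block), where 5.95% of all genes rose and 6.44% fell, with a list median of 0.12 against 0.02 over all genes.

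Odc1, the rate-limiting enzyme of polyamine synthesis and a classical Myc target, read 967, 873 and 915 in Control RNAi cells, 729, 809 and 773 in NF1 RNAi cells and 1217, 1321 and 1293 in NF1 RNAi + U0126 cells. It was thus highest where Myc was lowest: NF1 RNAi lowered it, with a difference of −0.25 ± 0.07 (adjusted p = 0.0288), and U0126 raised it by 0.73 ± 0.07 (adjusted p = 0.000334). Mycn had the same signs as Odc1 in these comparisons (−0.95, then 0.92), and its part in the target levels was not tested. With U0126, Hk2 (hexokinase, 1.03 ± 0.16) and Ppat (0.94 ± 0.09) rose more than Odc1, and Ccnd2 fell by a further 0.88 ± 0.15. Hk2 was dim, at a mean log2 level of 5.34 in control, 5.49 in NF1 RNAi and 6.53 in NF1 RNAi + U0126 cells. Ppat, the first enzyme of purine synthesis, read 270, 228 and 262 in control cells and 686, 649 and 757 with NF1 RNAi + U0126.

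The E-box letters stood in the promoter windows of 9 of 27 ribosome biogenesis genes (33.3%) and 10 of 31 metabolic and growth genes (32.3%), beside 7.69% of all genes. With U0126, none of the 9 ribosome biogenesis genes with CACGTG passed (median 0.16) and none of the 17 measured without it did (median 0.03). Of the 10 metabolic and growth genes with CACGTG, 2 rose and 1 fell (median 0.15), and of the 18 measured without it 6 rose and 1 fell (median 0.12).

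Of 10 genes that Myc is known to repress, 1 rose and 3 fell with NF1 RNAi (2 and 4 with replicate number as a block), where 12.1% of all genes rose and 12.4% fell. With U0126, 3 rose and 1 fell (4 and 2 with the block), where 5.95% of all genes rose and 6.44% fell. With the inhibitor Gadd45a rose by 1.10 ± 0.16, Gadd45b by 0.83 ± 0.17 (both growth arrest genes) and Cdkn2b, the CDK4/6 inhibitor p15, by 0.70 ± 0.07 (adjusted p = 0.00278, 0.0157 and 0.000405). Ndrg2 went the other way: it fell by 1.78 ± 0.13 with NF1 RNAi and by 0.87 ± 0.13 with U0126. Its other probe set, at the low end of the array, differed by −0.07 and 0.07. Cebpd and Cebpa also fell with NF1 RNAi, at −0.90 ± 0.17 and −0.43 ± 0.13 (limma adjusted p = 0.00502 and 0.0454). The dimmer Cebpa probe sets differed by −1.64, −1.40, −1.21 and −0.28, and all but the last passed. Those of Cebpd differed by −0.87, which passed, and by −0.003, which did not. Between NF1 RNAi + U0126 and control cells, 3 of the 10 were higher and 4 lower, where 16.6% of all genes were higher and 16.9% lower. The 4 lower genes were Ndrg2 (−2.65 ± 0.13), Ndrg1 (−1.48 ± 0.39), Cebpd (−1.23 ± 0.17) and Cebpa (−0.51 ± 0.13). The dimmer Cebpa probe sets were at −1.80, −1.65, −1.49 and −0.10 there, and all but the last passed.

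**Figure D4:**
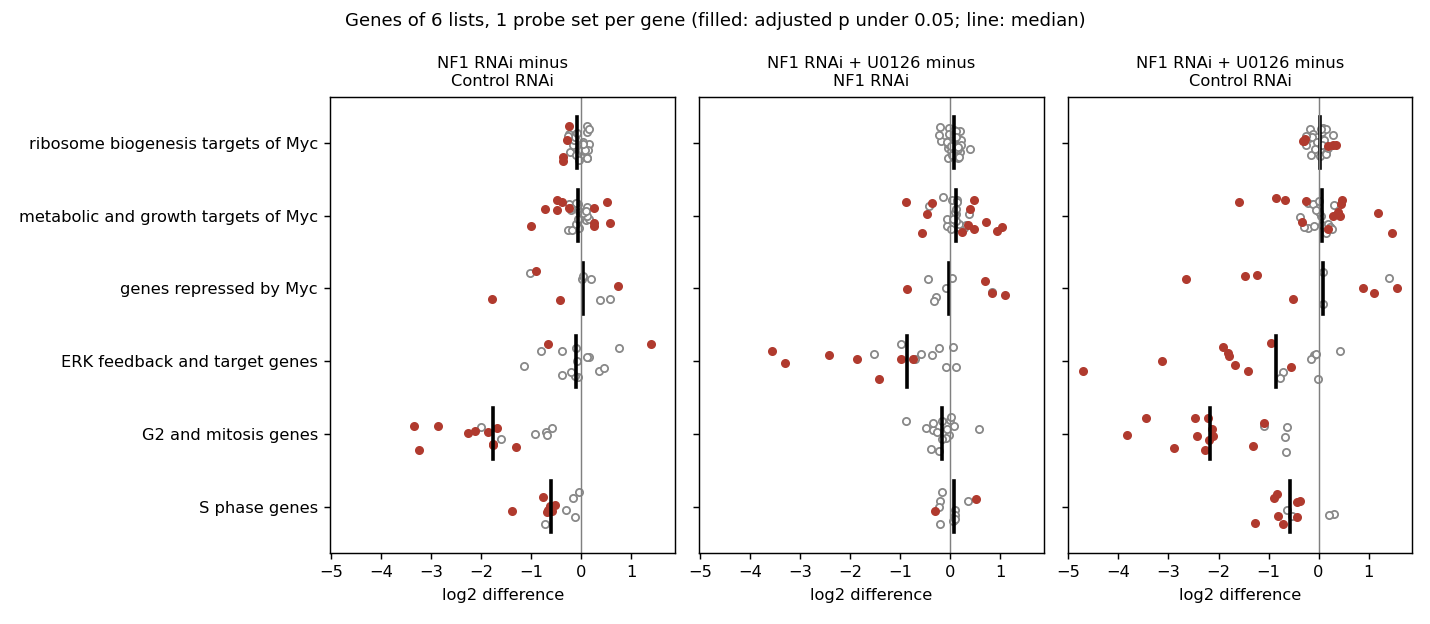
Log2 difference of each gene of 6 lists in the 3 comparisons, 1 point per gene (its brightest probe set), filled where the adjusted p was under 0.05, with a line at the list median. With U0126 the ribosome biogenesis targets lie around their median of 0.09 with no filled point, while ERK target genes have a median of −0.85.

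ERK target genes and cell cycle genes give the setting of these values. Of 16 measured genes of ERK feedback and response, 1 was higher and 1 lower with NF1 RNAi (4 and 1 without Control RNAi replicate 1, 2 and 2 with replicate number as a block), and 7 fell and none rose with U0126, as Myc did (median −0.85; 9 and none with the block). There the difference of Egr1 was −3.56 ± 0.44 and that of Dusp6, a phosphatase of ERK, −3.29 ± 0.39. Of 16 G2 and mitosis genes, 10 fell with NF1 RNAi (median −1.77, 12 with a median of −1.06 without Control RNAi replicate 1, and 13 with the block), and none passed with U0126 (median −0.16; none at an unadjusted p under 0.05). Of 12 S phase genes, 7 fell with NF1 RNAi (median −0.61; 7 and −0.39 without that array), so Myc, Mycn and Mxd4 fell in the comparison in which cell cycle genes fell, and the part of cell cycle signal in those falls was not tested. Without Control RNAi replicate 1 they were −0.84, −0.95 and −0.97.

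The genes whose levels over the 9 arrays were most like those of Myc were Clstn1 (Pearson r = 0.993), Ttyh1 (0.992), Zfp420 (0.991), Epn2 (0.990) and Hnrnpr (0.989), among 9901 genes with a mean log2 level of at least 6. Ttyh1, which encodes a membrane protein of glia, went from a mean log2 level of 11.50 in control cells to 10.06 with NF1 RNAi and 7.51 with NF1 RNAi + U0126. The most opposed were Cdh3, a cadherin gene (−0.992), Sod2 (−0.990) and Lyplal1 (−0.987). These arrays fall into 3 groups, so r mostly follows the group means, and 439 genes had an r of at least 0.9 with Myc.

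Of 8 measured Schwann cell markers, all but Mag, a gene of myelinating cells, had a mean log2 level above 6 in all groups, and S100b, Ngfr and Sox10 stood at 13.24, 12.80 and 11.40 in control cells. Several moved with the groups. With NF1 RNAi, S100b rose by 0.79 ± 0.07 and the myelin gene Pmp22 fell by 1.96 ± 0.35 (adjusted p = 0.000169 and 0.00446). With U0126, Gfap, Erbb3 (a neuregulin receptor) and S100b were lower, at −1.29 ± 0.32, −1.08 ± 0.22 and −0.38 ± 0.07 (adjusted p = 0.0322, 0.0138 and 0.0132). Summed marker intensity was 25493 to 32105 in control cells, 30810 to 32919 after knockdown and 28105 to 29163 with the inhibitor. Of 10 macrophage markers, 8 or 9 lay below a log2 level of 6 in each group, and summed intensity was 368 to 420 in control cells, 404 to 419 after knockdown and 455 to 509 with the inhibitor. Among these markers Cd68 alone passed with U0126, higher by 0.90 ± 0.12 (limma adjusted p = 0.00166). Of 10 fibroblast markers, Dcn, Lum and Pdgfra were at 3.95, 3.08 and 5.24 in control cells, but the collagen genes Col1a1 and Col1a2 were near 14. By brightest probe set, only Col3a1 passed with NF1 RNAi (−2.06 ± 0.36, limma adjusted p = 0.00377) and only Col1a2 with U0126 (−0.34 ± 0.09, adjusted p = 0.0361). The fibroblast list sum was 39987 to 49111 in control cells, 30486 to 34586 after knockdown and 21799 to 34280 with the inhibitor. Of 9 endothelial and mural markers 7 were below 6 in each group, with sums from 562 to 716, 512 to 535 and 515 to 633 in the same order. Of 9 neuron markers 5 or 6 were below 6, Snap25 and Stmn2 among them (4.33 and 3.86 in control cells), while Nefl and Nefm stood at 11.48 and 11.70, with sums from 5085 to 8858, 1379 to 2510 and 4137 to 4834. The part of these marker changes and of other cells in the member results was not tested.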

How the data were processed

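Each of the 9 arrays gave 1 intensity per probe set. Per the submitters' processing notes, the authors made these intensities with RMA, which corrects background, normalizes arrays and summarises probes; the deposited values are linear, from 5.62 to 25800.2, and its software and version are not stated in those sources. Precision is limited by the number of arrays. From the deposited intensities, log2(value + 1) was taken, which understates changes of dim probe sets. Of 31099 probe sets, 57 manufacturer controls were left out; 20826 had exactly 1 gene in the platform annotation, 436 several and 9780 none listed, and symbols were updated through the RefSeq gene table (20758 by gene ID).

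The test was limma's moderated test (version 3.58.1, R 4.3.3; 3 group means over all 9 arrays, two-sided, Benjamini-Hochberg over 31042 probe sets, no fold limit or low-value filter), tested on simulated data. Listed genes were taken by their brightest probe set. Same-numbered arrays deviated together from their group means (r from 0.14 to 0.59 in 9 pairs, and −0.48 to 0.37 in 18 pairs of different numbers). This mostly set replicate 1 apart: r was 0.37 to 0.59 among replicate 1 arrays, 0.14 to 0.21 among replicate 2 and 0.29 to 0.33 among replicate 3. Replicate 2 and replicate 3 arrays had an r of 0.12 to 0.37 with each other. These values do not show that all numbers pair the arrays, and the main fit did not use the numbers. The fit with replicate number as a block is given beside each member call it changes and each printed list count it moves by over 1.5 times. Smaller moves are not all listed. The rule for naming genes took all members, Nf1, and the 5 genes most and 3 least like Myc by Pearson r. It also took up to 4 passing genes per list and comparison with the largest differences (otherwise the smallest p). Many genes that it picks are not named in the text, among them mitosis, S phase and ERK target genes. Other probe sets of the named genes, Mnt, Ep400 and the cell type markers outside that rule were added after their values were seen. The members and lists were chosen with earlier results of these data known. Motifs were counted per gene in RefSeq promoter windows. Alternatives covered the block, filter, scaling, pseudocount, arrays used, variance model, unit tested, threshold and arrays left out. Figures used matplotlib 3.10.9 in Python 3.11.15.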

Additional observations from a re-analysis of the deposited data

How the results depend on the processing

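Over the alternatives, the member probe sets kept their direction and side of the threshold in 526 values, lost the call in 22, gained it in 23 and changed sign in 8. The number of member probe sets passing with NF1 RNAi (5) was 3 to 6 with arrays left out, with 3 without NF1 RNAi replicate 3, 8 with array weights, 2 at an adjusted p under 0.01 and 0 with a 2-fold limit added in limma, since no member probe set differed by 2-fold there at any p. With U0126 added to knockdown (2) it was 1 to 3 with arrays left out, 1 without any 1 of the 3 NF1 RNAi arrays, 1 at an adjusted p under 0.01 and 1 with the 2-fold limit. Between NF1 RNAi + U0126 and control cells (3) it was 3 to 4 with arrays left out and 5 with replicate number as a block, which added both Mxi1 probe sets; beside these, the dimmer Mxi1 probe set with NF1 RNAi and the calls printed in the text, the block changed no call of a member. All 8 changes of sign were in differences that did not pass: Mycn between NF1 RNAi + U0126 and control cells (0.022 with quantile normalization, 0.13 and 0.10 without inhibitor replicate 2 or 3; −0.33 to 0.13 with arrays left out), and the dimmer Max probe set with NF1 RNAi (−0.03 without Control RNAi replicate 1, −0.087 without all replicate 1 arrays; −0.087 to 0.23 with arrays left out) and between NF1 RNAi + U0126 and control cells (−0.021 with array weights, −0.11 and −0.12 without those arrays; −0.12 to 0.15 with arrays left out). The cause was not tested. Array weights raised the count of all probe sets passing with NF1 RNAi from 3284 higher and 3054 lower to 6361 and 5180; without NF1 RNAi replicate 2 the count with U0126 fell from 1381 higher and 1732 lower to 814 and 862. Leaving out Control RNAi replicate 1 for the lists was chosen after seeing the data. Myc with U0126 and Mxd3 in all groups lie low on the array, where background limits what a fold can show.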
